A study of Caenorhabditis elegans with 83 samples.

Results

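The small RNAs of met-2(n4256);SX1263 worms were compared at generation F15 between descendants of animals fed dsRNA against GFP and descendants of control animals. SX1263 is a Caenorhabditis elegans strain with a germline GFP reporter, and both groups carried it together with the met-2 allele. The groups were defined by the labels, and the comparison was chosen with earlier results of these data known. It took 6 of the 83 libraries of the series, 3 in the anti-GFP group and 3 in the control group. Only the ancestors at P0 ate the bacteria that made dsRNA, or empty-vector bacteria in the control group. The F15 animals were day 1 adults, grown at 20 degrees and taken as whole animals. Wild-type SX1263 libraries with the same 2 histories at F15, and separate met-2 libraries at F3, served as references, with 3 libraries in each group. For some rows the values of wild type, set-25(n5021) and met-2(n4256);set-25(n5021) at F3 and of wild type and met-2 at P0, all in the SX1263 background, are also given. Those P0 animals were themselves fed, and their groups held 3 libraries except wild type after anti-GFP, which held 2. The comparison between generations was fitted with all 59 SX1263 libraries. The labels number the replicates but do not say whether they came from separate cultures, so p-values measure the spread between these libraries, which may be technical. They also name 2 library kits without saying which library was made with which.

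In C. elegans, dsRNA taken up from food is cut into primary small interfering RNAs, and RNA-dependent RNA polymerases then use the target transcript as template to make many secondary small RNAs. These secondary small RNAs, bound by Argonaute proteins such as HRDE-1 in germline nuclei, can pass to descendants that never met the dsRNA. MET-2 is a histone methyltransferase related to SETDB1 that deposits mono- and dimethylation on histone H3 lysine 9. SET-25 adds trimethylation to the same lysine. The series asked how such marks bear on the inheritance of small RNAs. A count on a gene here is a count of small RNAs assigned to it, so a higher value means more small RNA on the gene and not more messenger RNA.

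The 6 libraries held between 4459423 and 7117675 counts on genes, and a floor of 3 counts came to 0.421 to 0.673 counts per 1000000 counts on genes (CPM). The row of met-2 itself stood at 97.9 to 106 CPM in the 6 met-2 libraries, against 356 to 446 CPM in the 6 wild-type libraries of the same generation. It differed between the met-2 groups by a log2 change of 0.02 (SE 0.11), and the set-25 row by -0.03 (SE 0.10). The first principal component of the 12 F15 libraries took 69.6% of the variance and separated met-2 from wild type. Replicate 3 of the met-2 control group stood apart from the other 11 libraries on the second component, which took 6.35%. Without that library 7 genes were called, and 4 of these were among the 10 described here. Leaving out control replicate 1 or anti-GFP replicate 3 also gave 7 calls. In bulk samples of whole animals, fewer cells of a type and less small RNA per cell cannot be told apart.

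Of 10675 genes tested, 10 passed a Benjamini-Hochberg adjusted p of 0.05, or 0.0937% of all. GFP, F14E5.8 and serr-1 were higher in the anti-GFP descendants (0.0281%). CB-unc-119, unc-119, ndx-6, otpl-7, rig-6, svh-1 and hpo-38 were lower (0.0656%). GFP and unc-119 kept their calls when any of the 6 libraries was left out, and the other 8 lost theirs in at least 1 of these fits. The groups of the 2 genotypes shared an estimate of the spread. With the 2 met-2 groups fitted alone, GFP, F14E5.8 and hpo-38 remained called and the other 7 did not.

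**Figure D1:**
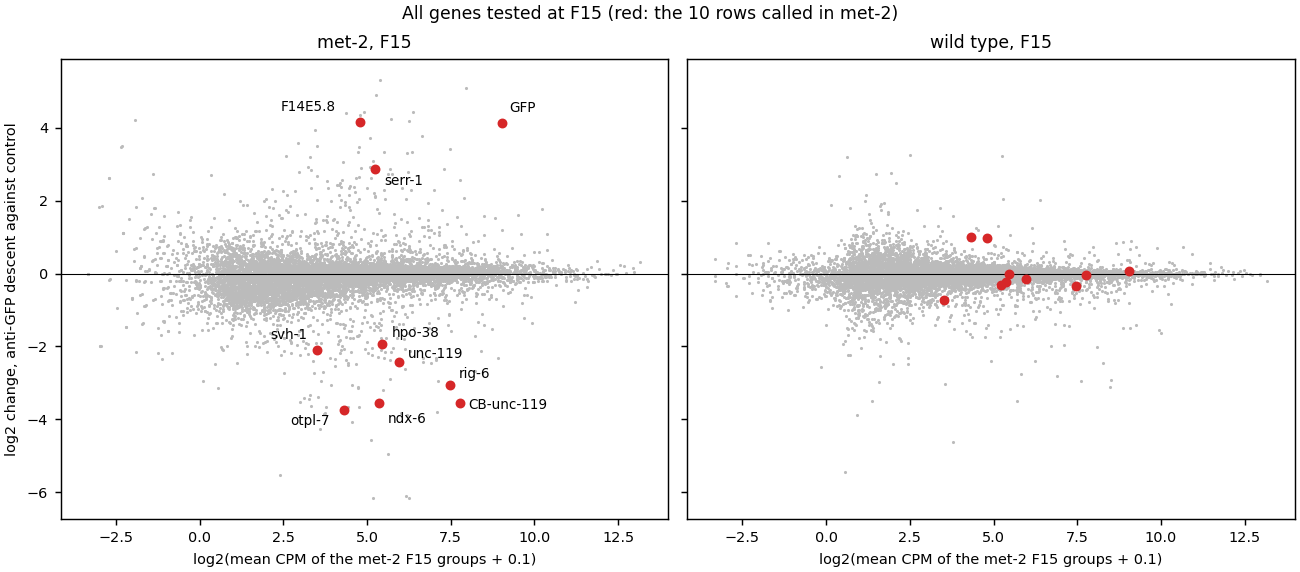
Each point is a gene tested at F15, with the log2 of its mean CPM over both met-2 F15 groups plus 0.1 on the horizontal axis and the log2 change of the anti-GFP descendants against the control on the vertical axis, in met-2 (left) and wild type (right). The 10 rows called in met-2 are red, with GFP at 4.13 and otpl-7 at -3.75 in met-2, while the same rows lie between -0.72 and 1.02 in wild type.

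The targeted GFP row had the highest mean level of the called rows in the anti-GFP group. It stood at 981 CPM, 933 CPM and 1069 CPM in the 3 anti-GFP libraries and at 54.9 CPM, 64.0 CPM and 51.9 CPM in the 3 controls. The groups did not overlap, and each varied little within itself. The means were 994 ± 69.1 and 56.9 ± 6.28 CPM (SD, n = 3 each), a 17.5-fold difference and a log2 change of 4.13 (SE 0.12, adjusted p = 2.98e-08). In wild-type descendants of the same generation the GFP row stood at 81.9, 86.8 and 89.3 CPM after anti-GFP ancestry and at 75.2, 86.2 and 83.3 CPM in the controls. These groups overlapped, and the log2 change was 0.08 (SE 0.11). The effect was larger in met-2 than in wild type by 4.05 log2 units (SE 0.16, adjusted p = 6.08e-07 for the difference). GFP was the sole gene called in that test of the difference (0.00937% of 10675), where 211 genes had an unadjusted p under 0.05 (1.98%) and DESeq2 called 16 (0.15%).

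The GFP row was not at 0 in any control. The met-2 controls at F15, between 51.9 and 64.0 CPM, lay below all 6 wild-type F15 libraries. At F3 the met-2 anti-GFP libraries held 558, 694 and 661 CPM of GFP against 62.3, 56.9 and 52.1 CPM in their controls. Those 6 libraries are separate from the F15 ones. The F3 log2 change was 3.48 (SE 0.22, adjusted p = 1.70e-08), an 11.2-fold difference. The F15 effect exceeded the F3 effect by 0.60 log2 units (SE 0.31), and this difference was not called (adjusted p = 0.962). In the met-2 animals that ate the dsRNA at P0, the GFP row had stood at 1590 to 2612 CPM. In wild type it had stood at 1726 and 1908 CPM after feeding at P0. At F3 the wild-type libraries held 172 to 250 CPM after anti-GFP and 64.2 to 69.4 CPM in the controls. Those F3 groups did not overlap, unlike the wild-type groups at F15.

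F14E5.8 had the largest log2 change of the called rows. It is a protein-coding gene on chromosome II (II:8420098-8422186, plus strand, WBcel235), and its function is not described here. Its row stood at 44.8, 45.6 and 67.1 CPM in the anti-GFP libraries and at 2.22, 3.15 and 3.41 CPM in the controls. The groups did not overlap. The means of 52.5 ± 12.6 and 2.93 ± 0.629 CPM (SD, n = 3 each) differed 17.8-fold, with a log2 change of 4.16 (SE 0.55, adjusted p = 0.0234). The call was lost when replicate 1, 2 or 3 of the control or replicate 3 of the anti-GFP group was left out, with an adjusted p of up to 0.112.

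At F3 the F14E5.8 groups did not overlap in any of the 4 genotypes of the SX1263 background. In met-2 at F3 the row stood at 41.6, 31.5 and 45.2 CPM after anti-GFP and at 6.88, 3.77 and 3.69 CPM in the controls. The log2 change of 3.05 (SE 0.70) was not called there (adjusted p = 0.0904). In wild type at F3 the row ranged from 33.4 to 77.3 CPM after anti-GFP and from 6.59 to 19.5 CPM in the controls. In set-25 at F3 it ranged from 18.3 to 27.1 CPM against 5.57 to 10.3 CPM. In the met-2;set-25 double mutant at F3 it ranged from 56.2 to 70.4 CPM against 2.43 to 52.2 CPM. These other groups are given as a description, since they were looked at after the met-2 values were known. In wild type at F15 the anti-GFP libraries held 27.5, 9.84 and 5.10 CPM and the controls 8.14, 5.93 and 7.51 CPM, which overlapped (log2 change 0.98, SE 0.49). Set against wild type, the F15 effect in met-2 differed by 3.18 log2 units (SE 0.71), which was not called (adjusted p = 1), although DESeq2 gave it an adjusted p of 0.0125.

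**Figure D2:**
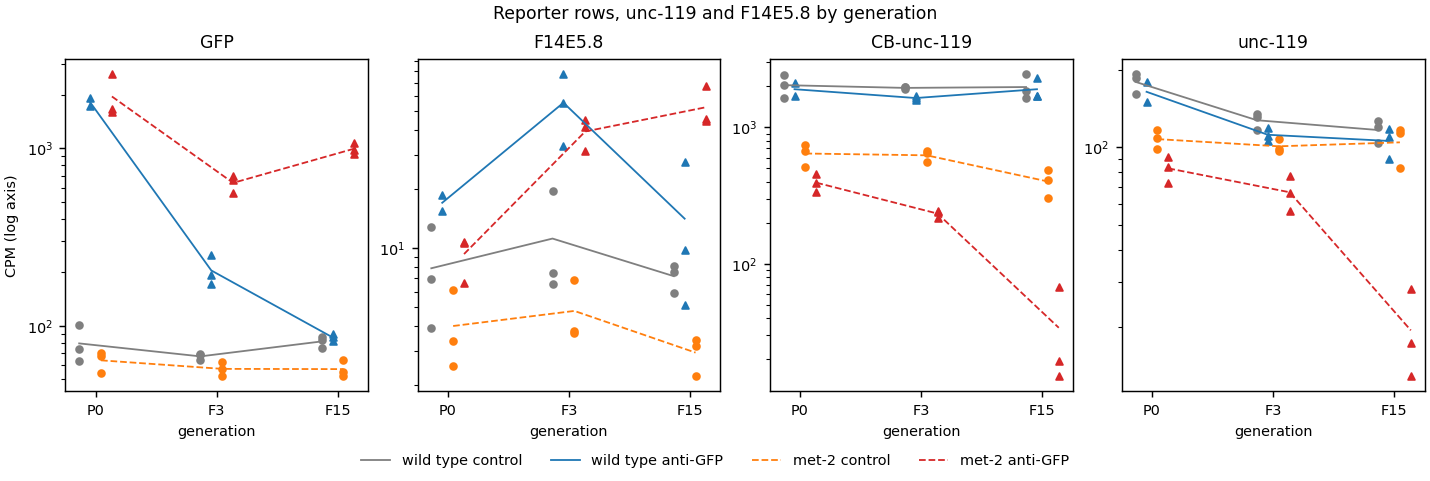
CPM on a log axis of the GFP, F14E5.8, CB-unc-119 and unc-119 rows at P0, F3 and F15 in wild type and met-2, with a point per library and lines through the group means. GFP stands at 994 CPM in met-2 and 86.0 CPM in wild type at F15 after anti-GFP, and CB-unc-119 stands at 33.9 CPM in those met-2 animals.

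The rise on F14E5.8 was not shared by the tested genes beside it. Within 20000 bp of it, 5 other genes were tested and 0 were higher without overlap in the anti-GFP group. Over all genes tested the share was 2.68%, so a count of 0 of 5 says little about the neighbours. Its neighbours efl-3, which encodes an E2F-like transcription factor, and F14E5.2 had log2 changes of -0.78 and 0.02. F14E5.2 held 151 CPM in each anti-GFP library and 147 to 151 CPM in the controls. F14E5.8 lies in the part of chromosome II that holds ttTi5605, a common landing site for transgenes inserted by Mos1 excision repair. The labels do not say where the SX1263 reporter was inserted, and no insertion site was looked for.

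**Figure D3:**
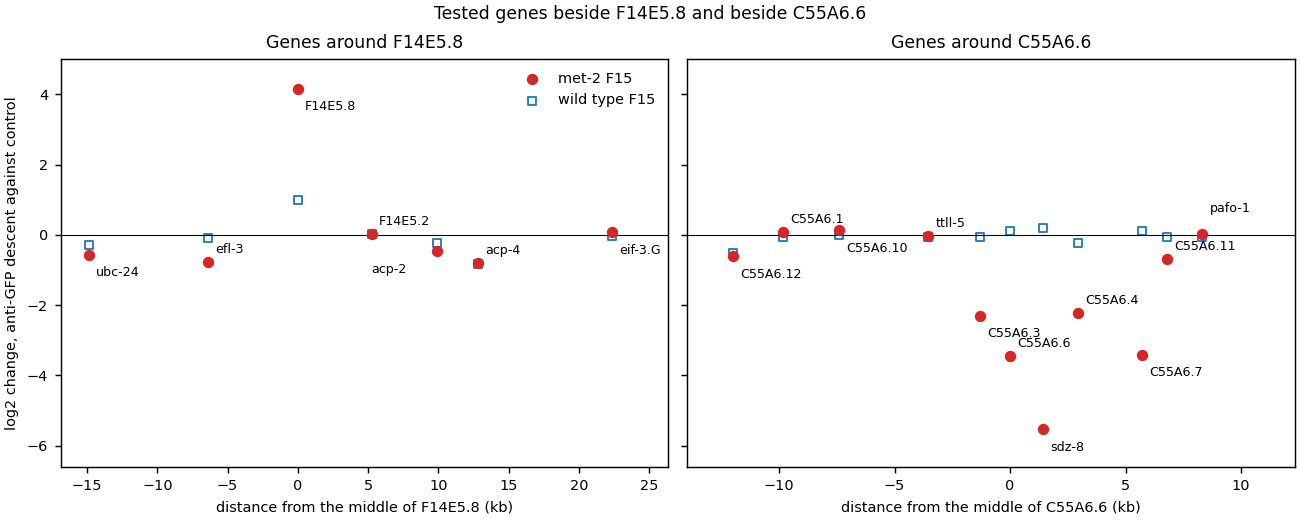
Log2 change at F15 of the tested genes around F14E5.8 (left) and C55A6.6 (right) against the distance between gene middles in kb, in met-2 (filled circles) and wild type (open squares). F14E5.8 stands at 4.16 with its neighbours between -0.80 and 0.07, and 5 adjacent C55A6 genes stand between -2.22 and -5.53 in met-2.

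The rows that fell included both copies of unc-119. UNC-119 is a lipid-binding chaperone that neurons need for protein trafficking, and a working copy of the gene is widely used to mark transgenic worms. CB-unc-119 is read from its name as the C. briggsae copy used for that purpose. Whether it lies on the GFP transgene is not stated in the labels. How reads common to the 2 copies were assigned is not given in the sources used here.

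CB-unc-119 stood at 67.6, 19.3 and 14.97 CPM in the anti-GFP libraries and at 414, 303 and 485 CPM in the controls. The groups did not overlap, and replicate 1 was the highest of the anti-GFP libraries. The means of 33.9 ± 29.2 and 401 ± 91.6 CPM (SD, n = 3 each) differed 11.8-fold (log2 change -3.56, SE 0.52, adjusted p = 0.0379). The call was lost in every leave-out except that of anti-GFP replicate 1, with an adjusted p of up to 0.108. In wild type the row was far higher, from 1630 to 2451 CPM over the 6 F15 libraries, with a log2 change of -0.05 (SE 0.47). The difference of the effects between genotypes, -3.51 (SE 0.68), was not called (adjusted p = 0.674), while DESeq2 gave it an adjusted p of 0.00030. At F3 the met-2 row fell from 623 ± 59.6 to 233 ± 14.2 CPM (SD, n = 3 each), a log2 change of -1.42 (SE 0.21, adjusted p = 0.00933). The fall at F15 exceeded that at F3 by a log2 difference of -2.18 (SE 0.41, adjusted p = 0.00798). Wild type at F3 held 1576 to 1695 CPM after anti-GFP and 1914 to 1961 CPM in the controls, without overlap. The double mutant at F3 held 258 to 650 CPM against 791 to 850 CPM, and in set-25 the F3 groups overlapped. In the fed met-2 animals at P0 the row held 333 to 458 CPM against 513 to 743 CPM. The wild-type P0 groups overlapped. These other groups were looked at after the met-2 F15 values were known.

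The endogenous unc-119 gene (III:10902641-10908935, plus strand) fell as well. Its row stood at 12.9, 28.1 and 17.4 CPM in the anti-GFP libraries and at 82.7, 114 and 117 CPM in the controls. The groups did not overlap, but replicate 1, the anti-GFP library with the most CB-unc-119, had the least unc-119. The means of 19.5 ± 7.78 and 104 ± 18.9 CPM (SD, n = 3 each) differed 5.34-fold (log2 change -2.42, SE 0.25, adjusted p = 0.0093). The adjusted p stayed at or under 0.0367 in the 6 leave-outs and was 0.326 with the 2 met-2 groups fitted alone. All 3 anti-GFP libraries lay below the 6 wild-type F15 libraries, which held 90.3 to 126 CPM. Of the met-2 controls, replicate 1 also lay below these and the other two lay among them. At F3 the means were 66.9 ± 10.3 and 101 ± 5.70 CPM (SD, n = 3 each), with a log2 change of -0.59 (SE 0.19) that was not called (adjusted p = 0.411). The F15 effect differed from the F3 effect by -1.86 (SE 0.29, adjusted p = 0.000657).

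The other 5 rows that fell were higher in the met-2 controls than in every wild-type F15 library. For ndx-6, a Nudix hydrolase gene (II:5388829-5389881, minus strand), the controls held 122, 37.6 and 67.2 CPM and the anti-GFP libraries 8.72, 5.48 and 4.93 CPM. The groups did not overlap, and the anti-GFP libraries lay at the wild-type level of 5.33 to 8.63 CPM. The log2 change was -3.56 (SE 0.40, adjusted p = 0.0111), an 11.8-fold difference, and the call was lost without anti-GFP replicate 3 (adjusted p = 0.0518). At F3 the met-2 controls had held 5.02 to 6.26 CPM of ndx-6 and the anti-GFP libraries 4.86 to 10.97 CPM. The F15 effect differed from the F3 effect by -4.05 (SE 0.84, adjusted p = 0.0164).

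For hpo-38, named after a screen for worms hypersensitive to a pore-forming toxin (III:230429-235092, plus strand), the controls held 66.7, 71.3 and 71.2 CPM and the anti-GFP libraries 16.3, 17.2 and 21.4 CPM. Both groups were tight and lay far apart, and the anti-GFP libraries lay within the wild-type range of 14.9 to 32.3 CPM. The log2 change was -1.93 (SE 0.24, adjusted p = 0.0217). This was among the rows called with the 2 met-2 groups fitted alone (adjusted p = 0.0117), and the call was lost without anti-GFP replicate 1 or 2 or control replicate 3 (adjusted p up to 0.0569). At F3 the hpo-38 row held 14.5 to 24.6 CPM in the met-2 controls and 10.9 to 44.6 CPM after anti-GFP, which overlapped. The hpo-38 gene overlaps klp-20 by 22 bp on the same strand. At F15 the mean klp-20 level in met-2 was 500 CPM after anti-GFP and 1159 CPM in the controls (unadjusted p = 0.0404 by edgeR, not called), with overlap between the groups. Its part in the hpo-38 values was not tested.

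For otpl-7, an otopetrin-like gene (V:8521503-8524678, plus strand), the controls held 16.5, 52.8 and 42.2 CPM and the anti-GFP libraries 3.58, 2.01 and 2.65 CPM. The wild-type libraries held 0 to 0.213 CPM, under their own floors of 3 counts, so that both met-2 groups lay above wild type. The log2 change in met-2 was -3.75 (SE 0.50, adjusted p = 0.0234). The call was lost without anti-GFP replicate 2 or 3 or control replicate 3 (adjusted p up to 0.0878). At F3 the otpl-7 row ranged from 16.1 to 61.4 CPM in the met-2 controls and from 5.66 to 117 CPM after anti-GFP.

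For rig-6, which encodes a contactin-like adhesion molecule of neurons (II:4798151-4812086, minus strand), the controls held 405, 396 and 150 CPM and the anti-GFP libraries 31.3, 56.6 and 25.6 CPM. The 6 wild-type F15 libraries held 1.91 to 3.36 CPM, below all of these. The log2 change in met-2 was -3.06 (SE 0.40, adjusted p = 0.0243). The call was lost without control replicate 1 or 2 or anti-GFP replicate 1 or 3 (adjusted p up to 0.116). At F3 the rig-6 row stood at 356, 99.6 and 10.8 CPM in control replicates 1, 2 and 3 and at 496, 26.2 and 16.3 CPM in the anti-GFP replicates 1, 2 and 3. The spread between F3 replicates was therefore larger than the difference between the F3 groups (log2 change 0.21, SE 0.92).

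For svh-1, which encodes a growth-factor-like ligand that acts in axon regeneration (IV:8206614-8213741, plus strand), the controls held 20.3, 17.1 and 17.4 CPM and the anti-GFP libraries 4.67, 3.48 and 4.74 CPM. The log2 change was -2.09 (SE 0.28, adjusted p = 0.0234). The call was held in the fit without control replicate 2 and lost in the other 5 leave-outs (adjusted p up to 0.0818). At F3 replicate 1 held 61.3 CPM of svh-1 in the control and 46.7 CPM after anti-GFP, while the other 4 libraries held 0.729 to 3.01 CPM. The svh-1 gene overlaps C07G1.6 and C07G1.7, and rig-6 overlaps C33F10.14, all on the opposite strand, and the strand used in counting is not given. The overlaps are 1245 and 942 bp for svh-1 and 29 bp for rig-6, and how reads within them were assigned is not known. In met-2 at F15, C07G1.7 averaged 12.46 CPM after anti-GFP and 41.04 CPM in the controls (unadjusted p = 0.03699 by edgeR). C07G1.6 averaged 7.75 and 11.97 CPM, and the groups overlapped for both genes. C33F10.14 averaged 15.24 and 21.34 CPM without overlap (unadjusted p = 0.0142 by edgeR). None of these partners was called, and their part in the svh-1 and rig-6 values was not tested.

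**Figure D4:**
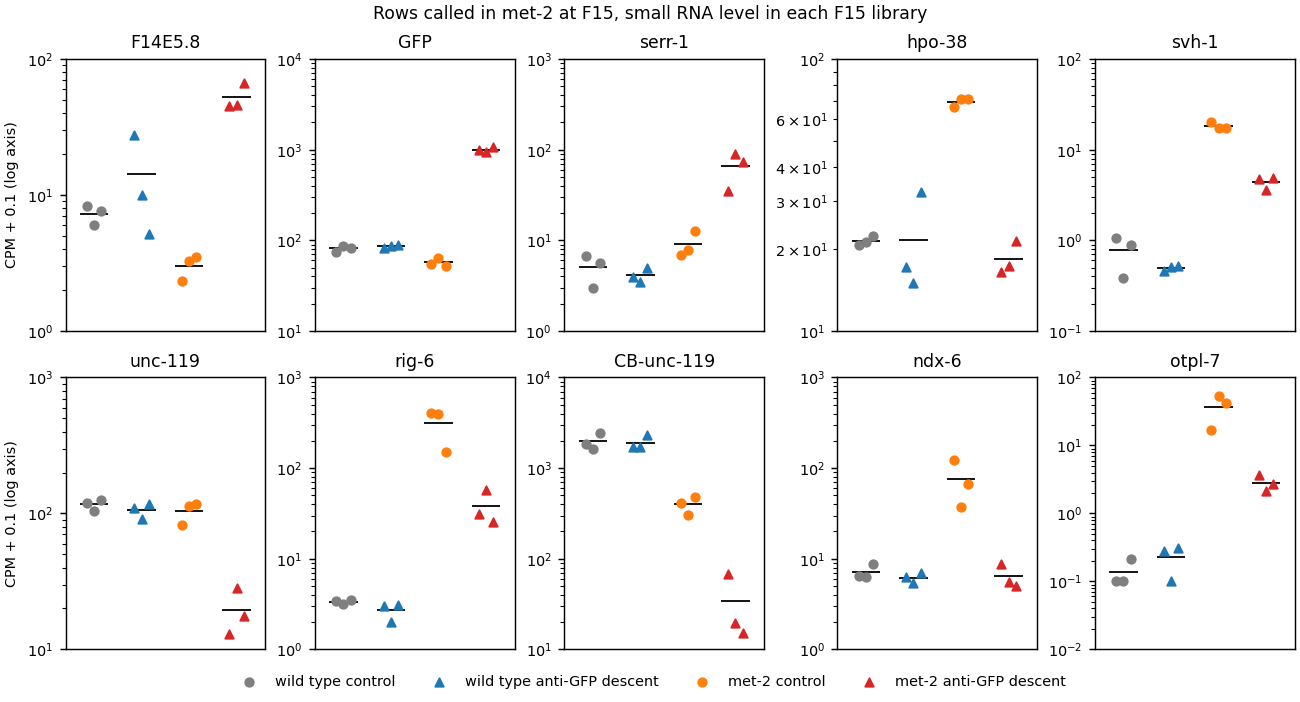
CPM plus 0.1 on a log axis of the 10 called rows in each of the 12 F15 libraries, with circles for control and triangles for anti-GFP descent and a line at each group mean. The met-2 groups do not overlap in any panel, and for ndx-6 the anti-GFP libraries, at 4.93 to 8.72 CPM, lie beside wild type while the controls lie between 37.6 and 122 CPM.

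The last called row, serr-1 (I:8571556-8573749, minus strand), was higher after anti-GFP. Its libraries held 35.2, 89.4 and 73.7 CPM after anti-GFP and 6.82, 7.68 and 12.6 CPM in the controls. The groups did not overlap, and all 6 lay above the wild-type F15 libraries, which held 2.89 to 6.59 CPM. The log2 change was 2.87 (SE 0.40, adjusted p = 0.0243). The call was held in the fit without anti-GFP replicate 1 and lost in the other 5 leave-outs (adjusted p up to 0.112). At F3 the serr-1 row held 11.1 to 26.8 CPM after anti-GFP and 19.6 to 24.9 CPM in the controls, and the F15 effect exceeded the F3 effect by 3.15 (SE 0.65, adjusted p = 0.0141).

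Beyond the called rows, 14 genes with the smallest unadjusted p among those without overlap were examined, 9 higher and 5 lower in the anti-GFP group. Genes without overlap made up 2.68% (higher) and 3.86% (lower) of all genes tested. None of the 14 passed edgeR's adjusted threshold, while their unadjusted p values ran up to 0.000883 for unc-36 and DESeq2 called all 14. Among the higher ones, nphp-4, a component of the ciliary transition zone, stood at 395, 59.4 and 101 CPM after anti-GFP and at 17.7, 12.99 and 9.52 CPM in the controls (log2 change 3.78, SE 0.67, adjusted p = 0.170). The ift-20 row, a gene of intraflagellar transport in cilia, stood at 50.1, 114 and 8.34 CPM against 3.92, 2.76 and 1.26 CPM (log2 change 4.43, SE 0.83, adjusted p = 0.191). The 3 anti-GFP libraries differed widely from each other in both. The nphp-4 gene overlaps col-158, pho-8, idpb-5 and R13H4.2 on the opposite strand. Mean levels after anti-GFP and in the controls were 307 and 106 CPM for col-158 (unadjusted p = 0.0486 by edgeR) and 41.7 and 17.9 CPM for R13H4.2 (unadjusted p = 0.0460 by edgeR), with overlap between the groups in both and adjusted p = 0.999. Their part in the nphp-4 values was not tested.

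For T14G10.8, W08F4.7 and K07A1.15 the met-2 controls lay below wild type. T14G10.8 stood at 349, 316 and 323 CPM after anti-GFP and at 13.1, 16.0 and 62.4 CPM in the controls (log2 change 3.43, SE 0.69, adjusted p = 0.317). The T14G10.8 controls lay below, and the anti-GFP libraries above, the 6 wild-type F15 libraries of 77.2 to 300 CPM. W08F4.7 stood at 67.1, 87.2 and 60.4 CPM after anti-GFP and at 39.9, 34.7 and 48.2 CPM in the controls (log2 change 0.81, SE 0.18, adjusted p = 0.360), all below the wild-type range of 158 to 253 CPM. The collagen gene col-64, the calcium channel subunit gene unc-36, hpo-32, K07A1.15 and T13C2.3 made up the rest of the higher genes, with log2 changes of 1.85 for unc-36 to 3.20 for col-64.

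The 5 lower genes were C55A6.6, C55A6.7, R12B2.3, F32E10.9 and ZK328.6, with log2 changes of -1.36 for R12B2.3 to -3.68 for ZK328.6. The adjusted p values ran from 0.0614 for C55A6.6 to 0.273 for ZK328.6. For all 5 the met-2 controls lay above every wild-type F15 library. ZK328.6, for example, held 93.5, 19.1 and 37.9 CPM in the controls and 7.16, 3.48 and 0.947 CPM after anti-GFP, against 0.145 to 0.969 CPM in wild type.

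Over the 24 rows named in either direction, levels were also set against wild type. Of the 12 lower rows, 10 had all 3 met-2 control libraries above all 6 wild-type F15 libraries, and 4 had all 3 anti-GFP libraries above them too. Of the 12 higher rows, 10 had all 3 anti-GFP libraries above all 6 wild-type libraries. In 5 of the 12 higher rows the met-2 controls lay below all wild-type libraries, and GFP, F14E5.8, K07A1.15, T14G10.8 and W08F4.7 were these. These counts describe rows chosen for their difference between the met-2 groups and carry no test. How many of all genes tested separate the genotypes in these ways was not counted. The counts can therefore not be read as a trait of these rows.

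Wild type gave few differences by the same measures. In wild-type F15 libraries 0 of 10675 genes were called by edgeR (0%), 94 had an unadjusted p under 0.05 (0.881%), and DESeq2 called 1 (0.00937%). In met-2, 453 had an unadjusted p under 0.05 (4.24%), and DESeq2 called 65, 30 higher (0.281%) and 35 lower (0.328%), or 0.609% in all, among them all 10 of edgeR's. With a difference of at least 2-fold, a mean of at least 5 CPM and no overlap between groups, 28 genes were higher (0.262%) and 57 lower (0.534%) in met-2. The same rule found 1 higher (0.00937%) and 17 lower (0.159%) in wild type.

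Replicates also varied more in met-2. Among 8112 genes with a mean of at least 5 CPM, 5.45% had an SD above 1 log2 unit in the met-2 anti-GFP group and 6.40% in the met-2 controls. The wild-type groups had 0.851% after anti-GFP and 1.75% in the controls. The fit of the 2 met-2 groups alone, which used none of the wild-type spread, called 3 rows.

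The separate F3 libraries gave 15 calls of 11439 in met-2 (0.131%), 3 higher (0.0262%) and 12 lower (0.105%). GFP and CB-unc-119 were the 2 rows called at both generations. Of the 10 rows called at F15, 5 had the same sign at F3, which were GFP, F14E5.8, CB-unc-119, unc-119 and svh-1. Beside GFP and CB-unc-119, F14E5.8 and unc-119 were the 2 that also did not overlap at F3, where 2.9% of all genes tested were higher and 5.36% lower without overlap. The other 5 had F3 log2 changes of -0.33 for serr-1 to 0.44 for ndx-6.

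The test of the F15 effect against the F3 effect in met-2 called 23 of 12706 genes (0.181%), 14 higher (0.11%) and 9 lower (0.0708%). Among them were 4 of the 10 F15 rows, namely CB-unc-119, unc-119, ndx-6 and serr-1. The 10 rows were called from F15 values that this test also uses, so their selection favours such a count. The test called 0 genes when the 12 met-2 libraries of F3 and F15 were fitted without the rest of the SX1263 libraries. T13C2.3 went opposite ways. It was lower after anti-GFP at F3, with 2.59, 3.04 and 3.26 CPM against 33.9, 14.1 and 7.93 CPM (log2 change -2.65, SE 0.41, adjusted p = 0.0127). At F15 it held 9.81, 55.1 and 26.1 CPM after anti-GFP and 4.61, 5.71 and 6.47 CPM in the controls (log2 change 2.44, SE 0.51, adjusted p = 0.283). The effects differed by 5.04 (SE 0.60, adjusted p = 1.85e-06).

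**Figure D5:**
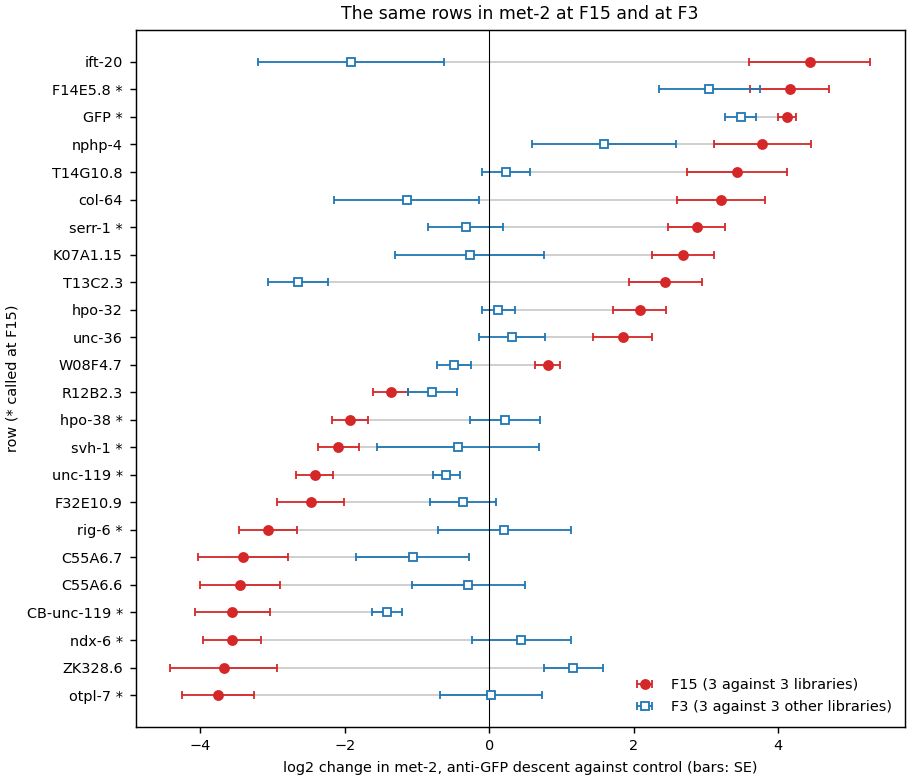
Log2 change in met-2 with its SE for the 10 called rows (starred) and the 14 next rows at F15 (filled circles) and at F3 (open squares). GFP stands at 4.13 and 3.48, CB-unc-119 at -3.56 and -1.42, and T13C2.3 at 2.44 and -2.65.

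A run of adjacent genes on chromosome V had less small RNA in the anti-GFP group. C55A6.3, C55A6.6, sdz-8, C55A6.4 and C55A6.7 lie side by side on the minus strand (V:11512309-11520530). All 5 were lower without overlap, beside 3.86% of all genes tested, and none passed the adjusted threshold. C55A6.3 stood at 16.3, 12.03 and 12.3 CPM after anti-GFP and at 53.9, 116 and 31.3 CPM in the controls. For C55A6.6 the values were 2.33, 0.936 and 1.52 CPM against 30.9, 13.6 and 7.91 CPM. The sdz-8 row, a gene named for its dependence on SKN-1 in the embryo, held 0, 0.535 and 0 CPM against 25.4, 2.17 and 3.23 CPM. At the edges of the run, ttll-5 had a log2 change of -0.02. C55A6.11, which overlaps the end of C55A6.7, had -0.68 (means of 2.35 CPM after anti-GFP and 3.82 CPM in the controls, which overlapped), and pafo-1 beyond it had 0.02. The run was chosen after its values were seen, so this count carries no test, and only C55A6.6 and C55A6.7 came from the ranking. At F3 the 5 genes had log2 changes of -1.47 for C55A6.4 to 0.33 for C55A6.3. The wild-type libraries held at most 5.10 CPM of C55A6.3 and less of the others.

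Gene lists were described by their counts and medians. Of 27 lists, 24 had 0 members called, and the 2 members called in all were unc-119, in the lists of reporter parts and neurons, and ndx-6, in the Nudix list, against 0.0937% of all genes tested. The median log2 change lay within 0.1 of 0 in 25 lists, beside -0.01 over all genes tested. The lists that lay outside were sperm genes, with a median of -0.32 over 29 tested members, and intestine genes, with 0.18 over 19. In wild type at F15 the medians were 0.03 for the sperm list and 0.24 for the intestine list.

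No gene of the small RNA machinery itself was called. Over 7 lists, 0 of 122 tested members were called by edgeR, beside 0.0937% of all genes tested. The lists held Argonautes, mutator and RNA-dependent RNA polymerase genes, nuclear RNAi, dsRNA uptake, P granule and chromatin genes. At that share, 0 calls in a set of this size say little about its members. An unadjusted p under 0.05 was seen for 1 member, beside 4.24% of all genes tested, and the median log2 change was 0.03. That gene was mip-2, a P granule component (log2 change -0.29, SE 0.13). The germline nuclear Argonaute hrde-1 changed by -0.09 (SE 0.14), the piRNA Argonaute prg-1 by 0.15 (SE 0.11), the RNA-dependent RNA polymerase gene ego-1 by 0.06 (SE 0.12) and the Dicer gene dcr-1 by 0.14 (SE 0.11). DESeq2 called 0 members of these lists, beside 0.609% of all genes tested.

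Over 7 lists of tissue and stage markers, 1 of 197 tested members was called, which was unc-119, beside 0.0937% of all genes tested. An unadjusted p under 0.05 was seen for 15 members, beside 4.24% of all genes tested, and the median log2 change was 0.01. The summed small RNA level of the oogenesis list ran from 6836 to 6956 CPM after anti-GFP and from 5829 to 6974 CPM in the controls. That of the sperm list ran from 618 to 726 CPM and from 579 to 988 CPM. The neuron list, which holds unc-119, summed to 1721 to 2061 CPM after anti-GFP and to 1971 to 2326 CPM in the controls. The summed ranges overlapped in all 3 lists. In the collagen list 45 of 175 rows were tested and 0 were called by edgeR. At an unadjusted p under 0.05, 2 were higher and 5 lower, beside 4.24% of all genes tested. DESeq2 called 2, beside 0.609% of all. The muscle gene deb-1 (log2 change 2.23, SE 0.56, adjusted p = 0.558) and the collagen processing gene dpy-5 (log2 change -3.07, SE 0.80, adjusted p = 0.626) are named by rank within their lists, and neither was called.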

How the data were processed

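Each library's deposited file holds raw counts per gene. Trimming with cutadapt, quality checks with FastQC, alignment with Bowtie2 and counting with HTSeq are the usual roles of the tools that the submitters' processing notes list beside DESeq2, with no version or order, and those notes give WBcel235 and ce11 as builds. The strand used and any length filter are not given in the sources used here, so sense and antisense small RNAs are not separated. Counter rows that name no gene held 54.7 to 62.0% of records in the met-2 F15 libraries and were left out. Of 20449 gene rows, 20159 were found in Ensembl's WBcel235 annotation. The 290 others, with 0.693% of F15 counts and GFP and CB-unc-119 among them, were kept.

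Counts were tested with edgeR 4.0.16 (R 4.3.3) using its quasi-likelihood F test in robust form with TMM factors. Genes had to pass filterByExpr (minimum count 10, total 15). All adjusted p values are Benjamini-Hochberg values over all genes tested, called under 0.05, and are from edgeR unless DESeq2 (1.42.0) is named. The F15 fit took 12 SX1263 libraries, the F3 fit 24, and the comparison between generations all 59. Levels are CPM scaled by TMM factors within a generation. A floor of 3 counts reflects counting error alone, because the kits named in the labels add no molecular identifiers. The script was tested on simulated data.

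Named rows were GFP, CB-unc-119, unc-119, met-2, set-25 and every called gene, then, up to 12 each way, the smallest unadjusted p without overlap where the higher group reached 5 CPM, and of each of 27 gene lists the 2 members with the smallest p and the most abundant one. The comparison, lists and rule were chosen with earlier results of these data known. Alternatives covered scaling, filtering, DESeq2, the libraries in the fit, the replicate number as a block and leaving out each replicate. Same-numbered libraries of the met-2 F3 groups deviated together from their group means (correlations of 0.177, 0.324 and 0.225), as did those of the wild-type F15 groups (0.277, 0.241 and 0.308), which met the rule for paired numbers. Those of the met-2 F15 groups did not meet it. The values given are from fits without the block, and the block served as an alternative throughout.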

Additional observations from a re-analysis of the deposited data

Results flagged for a closer look

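The effect of anti-GFP ancestry on the GFP row differed between genotypes at F15, by 4.05 log2 units between met-2 and wild type (adjusted p = 6.08e-07). GFP was higher in 3 of 3 met-2 libraries than in any of their controls, and the wild-type groups overlapped.

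The effect in met-2 differed between F15 and F3 for 8 of the rows described. Most rows described were chosen by F15 values that this test also uses, so their selection favours such a count. The difference was -2.18 for CB-unc-119, -1.86 for unc-119, -4.05 for ndx-6 and -4.89 for ZK328.6, so that these were lower in the anti-GFP group at F15 relative to F3. It was 3.15 for serr-1, 1.93 for hpo-32, 5.04 for T13C2.3 and 3.17 for T14G10.8. The adjusted p ranged from 1.85e-06 for T13C2.3 to 0.0164 for ndx-6. None of these 8 passed when the 12 met-2 libraries of both generations were fitted alone. For ndx-6 the F15 controls, at 37.6 to 122 CPM, stood above the F3 controls, at 5.02 to 6.26 CPM, and for T14G10.8 the F15 controls, at 13.1 to 62.4 CPM, stood below the F3 controls, at 96.6 to 174 CPM. Each met-2 library of F3 and F15 was also left out in turn, in 12 fits. The adjusted p stayed under 0.05 for CB-unc-119 (up to 0.02885), unc-119 (up to 0.00589) and T13C2.3 (up to 4.06e-05). It rose to 0.0744 for ndx-6, 0.0622 for T14G10.8, 0.0615 for hpo-32 and 0.0605 for both serr-1 and ZK328.6. The calls of these last rows therefore depended on single libraries.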

How the results depend on the processing

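The 10 met-2 F15 calls became 65 with DESeq2, 75 with all 59 SX1263 libraries in the fit, 3 with the 2 compared groups only and 6 with the replicate number as a block. They ranged from 7 (without control replicate 1 or 3 or anti-GFP replicate 3) to 15 (without control replicate 2). The block kept 5 of the 10 and lost CB-unc-119, F14E5.8, otpl-7, rig-6 and serr-1. Same-numbered met-2 F15 libraries had correlations of deviations of 0.239, 0.0894 and 0.0330, and the third was lower than a pair with other numbers (0.0582), so the numbers were not taken to pair them. RLE factors, library totals, no low-count filter, the fit without robust estimation and the fit without the GFP and CB-unc-119 rows gave 8 to 12 calls.

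For GFP the log2 change ranged from 4.07 to 4.23 over the leave-outs, and the call held in every alternative that kept the row. The difference from wild type had 1 call, 16 with DESeq2 and 1 to 6 over the leave-outs, the highest without met-2 control replicate 2. In wild type DESeq2 called 1 gene, and the leave-outs and the replicate block 0. The met-2 F3 calls, 15 or 0.131% of genes tested, became 78 (0.682%) with DESeq2, 21 (0.184%) with the replicate block and 0.0850 to 1.01% over the leave-outs, the highest without control replicate 2. The difference between F15 and F3, 23 calls, became 43 with DESeq2, 26 with the replicate block, 0 with met-2 F3 and F15 libraries only and 9 to 43 over the leave-outs, lowest without F3 control replicate 3 and highest without F15 anti-GFP replicate 2. The block changed no F3 or wild-type call of a row named in the results. DESeq2 called 8 distinct list members in place of 2. No direction reversed. The cause of these moves was not tested. At this depth a level under 0.421 to 0.673 CPM could not be told from 0.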
